A study of Rattus norvegicus with 10 samples.

Results

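ATP-binding cassette (ABC) genes other than the bile exporters Abcb4, Abcb11 and Abcc2 were described in rat liver after calorie restriction of the mother. The members are the rows of the deposited table whose symbol begins with Abc, a subfamily letter from a to g and a number, without those 3 genes. This gave 41 of 12555 rows, carrying 40 distinct symbols, because Abcb1b stands on 2 rows with different Ensembl identifiers. RNA was sequenced in 5 libraries of the group under a 30% calorie-restricted diet during all of gestation (restricted 1 to 5, library names SGA) and in 5 of the normal diet group (normal 1 to 5, library names AGA). The names stand for small and appropriate size for gestational age, and the series' title speaks of catch-up growth. All are labelled wild type, and the sources used here do not give strain, sex, age or litter. The labels speak of a hepatocyte cell line and also of liver, and the series' design text of liver tissue. The albumin gene Alb had 100240 to 155970 CPM (counts scaled to library size) in the restricted libraries and 99848 to 130540 CPM in the normal libraries, and 7 endothelial markers summed to 464 to 537 CPM in the restricted libraries and 484 to 519 CPM in the normal libraries, so markers of cells other than hepatocytes were present in all 10.

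ABC proteins bind and split ATP through a shared pair of nucleotide-binding domains. Most use that energy to move a substrate across a membrane, either as one long chain or as a dimer of shorter chains. In liver they carry sterols, phospholipids, drug conjugates, heme precursors and fatty acyl-CoA, each from its own membrane: the canalicular or sinusoidal face of the hepatocyte, the peroxisome, the mitochondrion or the lysosome. The E and F subfamilies keep the ATP-binding domains, have no membrane part and act on ribosomes. The sulfonylurea receptors of the C subfamily do not transport at all and instead gate potassium channels.

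Total counts ran from 14936156 to 22104957 per library. The libraries did not differ by diet alone. Kdm5d, a gene of the Y chromosome, was read 309 times in restricted 5 and not at all in the other 4 restricted libraries (a floor of 0.134 to 0.207 CPM), against 280 to 392 times in each normal library. Likely sex and diet therefore cannot be told apart in restricted 1 to 4, and restricted 5 is given separately where a result turns on it. With Kdm5d as a covariate the diet difference rests on restricted 5, as it does when restricted 5 alone is set against the normal libraries, where its own spread is unknown and assumed to be theirs. Neither fit is a replicated test of diet, and they called 1 and 2 members beside 0.954% and 6.49% of all genes. The summed level of 12 macrophage markers was 1158, 2077, 1216, 1486 and 2711 CPM in restricted 1 to 5, against 1039 to 1339 CPM in the normal libraries. All 12 had positive log2 fold changes, with a median of 0.65 beside 0.01 over all genes tested, though 0 of these markers passed the test. In bulk liver, fewer cells of a type and less RNA per cell cannot be told apart.

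Across the family the changes were few and ran both ways. Of the 41 members, 40 were kept by the filter on low counts and Abca13 was not. In edgeR's quasi-likelihood test over all 12367 genes kept, 2 members rose (Abcd2 and Abcd3) and 3 fell (Abcg8, Abcb9 and Abcd4) at a Benjamini-Hochberg adjusted p below 0.05. That is 12.5% of the members tested, beside 4.09% of all genes tested (1.87% higher and 2.22% lower). At an unadjusted p below 0.05 there were 16 members, 5 higher and 11 lower, or 40.0% beside 20.1% of all genes (10.2% higher and 9.93% lower). The restricted and normal libraries did not overlap in CPM for 7 members, or 17.5% beside 6.35% of all genes (2.91% higher and 3.44% lower): the 5 named and, lower, the drug exporter Abcg2 and the mitochondrial gene Abcb8. The median log2 fold change of the 40 was −0.13, against 0.01 over all genes tested, and 23 of the 40 were negative, where 47.7% of all genes were. With single libraries dropped, 1 to 4 members passed the test, and not all were among the 5 called above. Without normal 3, Abcg5 and Abcc10 passed beside Abcd2 and Abcg8, and without normal 1, Abca8 passed beside Abcd2 and Abcd3. The number that fell was 0 without restricted 1 or 2 or normal 1, 2, 4 or 5. It was 1 without restricted 3, 4 or 5. The number that rose was 1 without normal 3, 4 or 5.

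**Figure D1:**
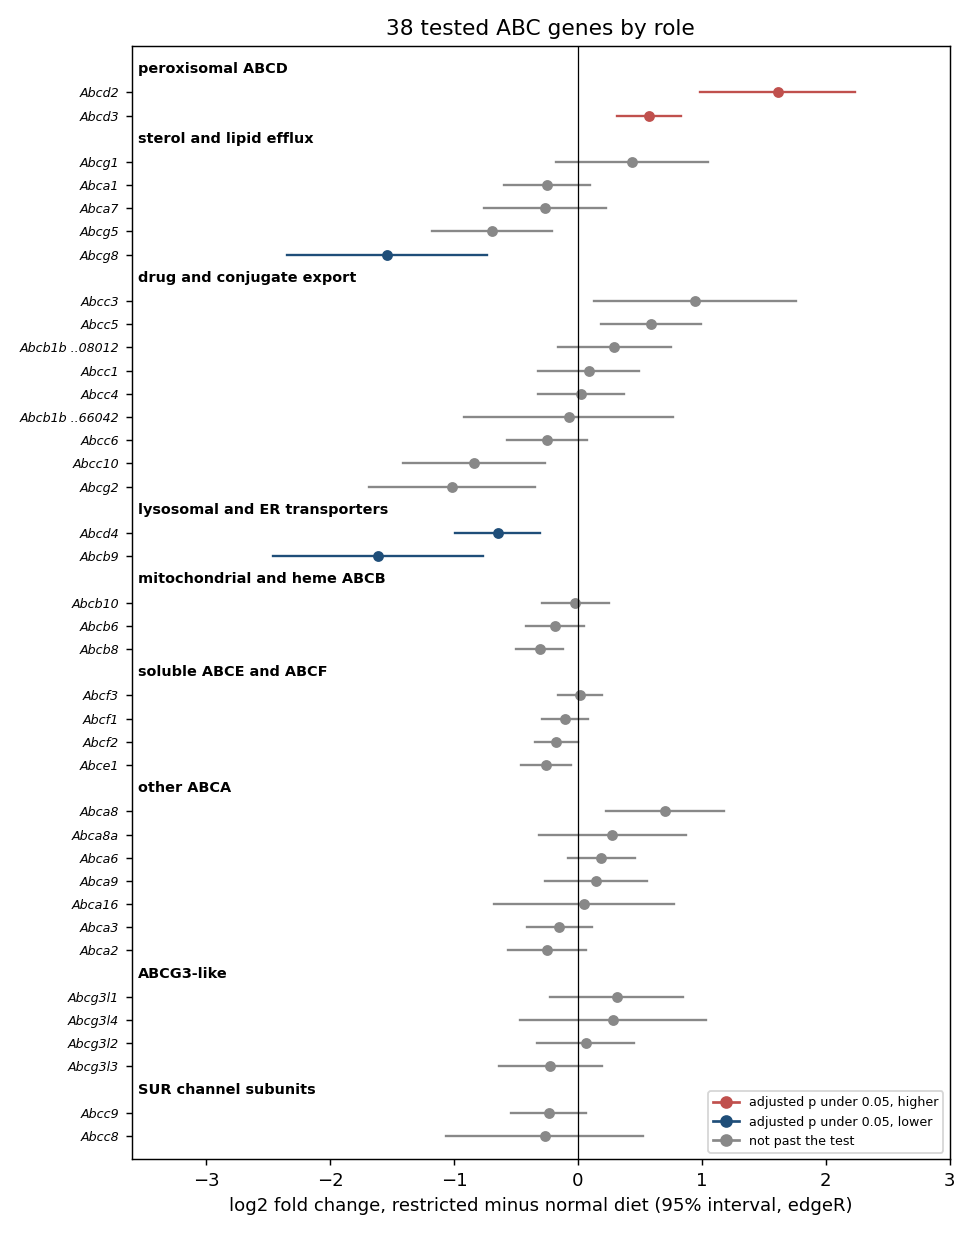
Log2 fold change of 38 of the 40 tested ABC genes, restricted minus normal diet, with the 95% interval of the edgeR fit, grouped by role. The intervals of the 2 genes called higher and the 3 called lower lie clear of 0, and the 33 genes in grey did not pass. The intervals are not adjusted for the number of genes, and those of some grey genes, such as Abcg2 and Abcb8, also lie clear of 0.

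Of 3 peroxisomal transporters, 2 rose, Abcd2 and Abcd3, and 0 fell. ABCD proteins bring fatty acyl-CoA from the cytosol into the peroxisome for β-oxidation. Abcd2 (ENSRNOG00000015538), which prefers very long and polyunsaturated chains, had 20.9, 14.9, 19.3, 28.9 and 18.4 CPM in restricted 1 to 5, against 7.65, 3.18, 4.62, 9.64 and 8.43 CPM in normal 1 to 5. Every restricted library stood above every normal one, and restricted 4 was the highest. The level was 3.05-fold higher (log2 fold change 1.61 ± 0.28, SE; 95% interval 0.99 to 2.23; edgeR adjusted p 0.0134). It passed whichever single library was dropped, at adjusted p of 0.0113 to 0.0337.

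Abcd3 (ENSRNOG00000011929), known as PMP70 and a major protein of the peroxisomal membrane, takes branched-chain and dicarboxylic substrates and bile acid precursors. It had 251, 237, 231, 349 and 228 CPM in restricted 1 to 5, against 176, 180, 170, 173 and 175 CPM in normal 1 to 5. The normal libraries lay within a narrow band, all restricted libraries above it, and restricted 4 far above the other restricted libraries. The log2 fold change was 0.57 ± 0.12 (SE; edgeR adjusted p 0.0215), and the adjusted p rose to 0.0565, 0.0520 and 0.0576 without normal 3, normal 4 or normal 5. Without restricted 4 the log2 fold change was 0.45 (adjusted p 0.0139).

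Per length, the FPKM of Abcd2 was 0.154 to 0.205 of that of Abcd3 in the restricted libraries and 0.0434 to 0.137 in the normal libraries. The groups did not overlap, so Abcd2 made up more of the summed message of these 2 genes in every restricted library.

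Restricted 5 alone had Abcd2 1.46 and Abcd3 0.38 above the normal mean on the log2 scale, and the mean of restricted 1 to 4 had them 1.65 and 0.61 above it. Neither gene passed with Kdm5d as a covariate (edgeR adjusted p 0.152 for Abcd2 and 0.359 for Abcd3). Of 15 tested genes for peroxins, the proteins that build and divide peroxisomes, 1 rose and 0 fell, with a median log2 fold change of 0.15. The one that rose was Pex11a, which promotes peroxisome division: it averaged 44.1 ± 21.5 CPM in the restricted group and 13.9 ± 2.77 CPM in the normal group (SD, n = 5 each; edgeR adjusted p 0.0172).

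The stretches before the starts of the called peroxisomal genes are shown because both rose, in lower case 5′ to 3′ on the gene's strand, from RefSeq on build GRCr8. In Abcd2 (chr7:124191203-124191452, minus strand) the capitals mark a match to the nuclear receptor hexamer AGGTCA on the other strand, and in Abcd3 (chr2:212590380-212590629, minus strand) a match to the GC box GGGCGG, also on the other strand.
Abcd2: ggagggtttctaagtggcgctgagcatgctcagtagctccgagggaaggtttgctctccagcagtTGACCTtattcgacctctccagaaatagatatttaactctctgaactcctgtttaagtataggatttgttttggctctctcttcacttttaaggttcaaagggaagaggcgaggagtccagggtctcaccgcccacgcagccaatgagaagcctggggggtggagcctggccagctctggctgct
Abcd3: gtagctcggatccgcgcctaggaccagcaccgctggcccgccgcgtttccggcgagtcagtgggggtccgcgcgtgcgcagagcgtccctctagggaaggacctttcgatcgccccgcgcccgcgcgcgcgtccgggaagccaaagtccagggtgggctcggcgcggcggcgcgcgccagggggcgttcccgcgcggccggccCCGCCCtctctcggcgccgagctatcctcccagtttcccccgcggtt
Each stretch is 250 bases long. The Abcd2 stretch has 52.0% G and C and the Abcd3 stretch 75.6%, beside a median of 51.2% over 33469 such windows in the RefSeq table. AGGTCA on either strand is in 14.1% of all windows, once in that of Abcd2 and not in that of Abcd3. GGGCGG is in 30.5% of all windows and once in each of the 2, and CCAAT is in 34.0% of all windows and once in that of Abcd2. The 2 windows thus differ in base composition and share the GC box. That box is not particular to them: among the genes that fell, the window of Abcd4 has 2 matches and that of Abcb9 has 4.

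**Figure D2:**
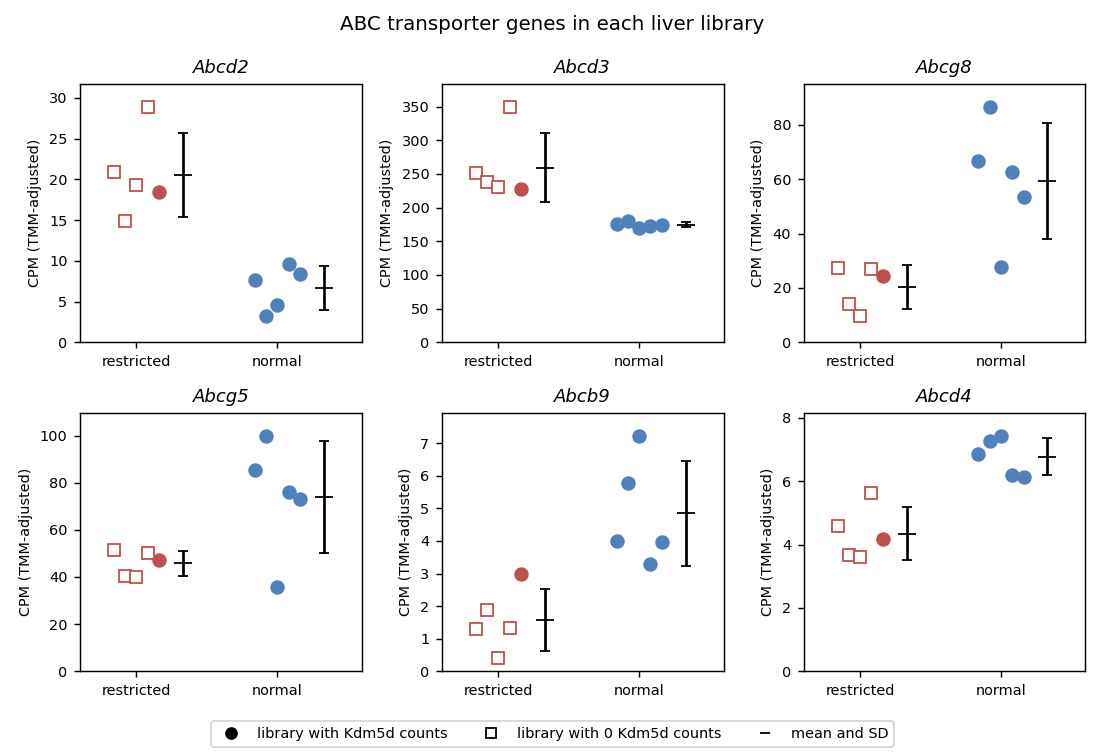
CPM of 6 ABC genes in each library, restricted left and normal right, with mean and SD over 5 libraries; filled circles are libraries with Kdm5d counts and open squares libraries with 0. Abcd2 and Abcd3 are higher and Abcg8, Abcb9 and Abcd4 lower in CPM in all 5 restricted libraries, while Abcg5 overlaps through normal 3.

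Of 5 tested exporters of sterol and lipid, 1 fell, Abcg8, and 0 rose, with a median log2 fold change of −0.26. Abcg5 and Abcg8 encode the partners of one heterodimer that moves cholesterol and plant sterols into bile and gut, and neither partner is known to work alone. Abcg8 (ENSRNOG00000005420) had 27.3, 13.9, 9.54, 26.8 and 24.4 CPM in restricted 1 to 5, against 66.8, 86.5, 27.6, 62.5 and 53.4 CPM in normal 1 to 5. In CPM all restricted libraries lay below all normal ones, but in FPKM restricted 1 (2.84) stood just above normal 3 (2.79). The log2 fold change was −1.54 ± 0.36 (SE; 95% interval −2.35 to −0.73; edgeR adjusted p 0.0479), a level 0.344 times the normal one. Dropping single libraries, it passed only without normal 3 (adjusted p 0.0277), and the other 9 fits gave 0.0527 to 0.106. With all libraries it did not pass in limma-voom, another test on the same counts.

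Abcg5 (ENSRNOG00000005250) had 51.3, 40.6, 40.0, 50.1 and 47.2 CPM in restricted 1 to 5, against 85.4, 99.9, 35.6, 76.3 and 73.1 CPM in normal 1 to 5. Normal 3 was below every restricted library and the other 4 normal libraries were above them all. The log2 fold change of −0.69 ± 0.22 did not pass (edgeR adjusted p 0.111), and without normal 3 it was −0.87 with an adjusted p of 0.00928, where dropping each of the other 9 gave 0.127 to 0.211. Normal 3 was the lowest normal library for both genes, yet its ratio of Abcg8 to Abcg5 was like that of the other normal libraries.

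The FPKM of Abcg8 was 0.255, 0.165, 0.114, 0.256 and 0.249 of that of Abcg5 in restricted 1 to 5, against 0.376, 0.416, 0.372, 0.393 and 0.351 in normal 1 to 5. The balance of the 2 partners' messages was therefore lower for Abcg8 in every restricted library, including restricted 5. Against the normal mean, restricted 5 had log2 differences of −1.28 for Abcg8 and −0.65 for Abcg5, and the mean of restricted 1 to 4 had −1.62 and −0.70. With Kdm5d as a covariate neither passed (edgeR adjusted p 0.410 for Abcg8 and 0.469 for Abcg5).

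**Figure D3:**
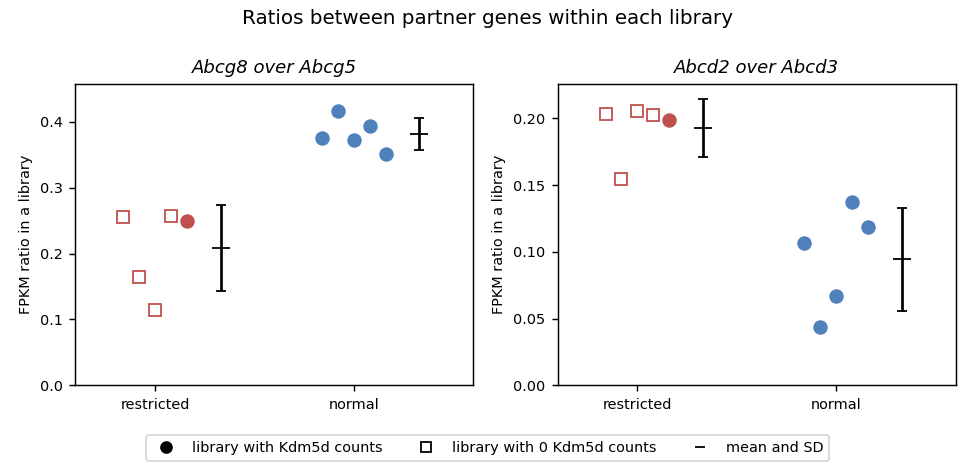
FPKM ratios within each library for Abcg8 over Abcg5 and Abcd2 over Abcd3, restricted left and normal right, with mean and SD over 5 libraries. Abcg8 over Abcg5 is 0.114 to 0.256 in the restricted libraries and 0.351 to 0.416 in the normal libraries, and neither panel has overlapping groups.

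Abcg8 and Abcg5 are neighbours that face away from each other, and RefSeq places 205 bases between their starts. This shared stretch is shown because it lies before the starts of both partners, on build GRCr8 (chr6:15717731-15717935), 5′ to 3′ on the plus strand, which is the strand of Abcg5. The capitals mark 2 matches to the GATA box AGATAA.
Abcg8-Abcg5: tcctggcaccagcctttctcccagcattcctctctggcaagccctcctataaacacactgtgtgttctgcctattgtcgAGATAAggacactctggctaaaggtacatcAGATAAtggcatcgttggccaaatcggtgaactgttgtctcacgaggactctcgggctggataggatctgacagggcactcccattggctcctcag
Its G and C content is 52.2%. AGATAA on either strand is in 10.3% of the 250-base windows and 2 times in that of each partner, TATAAA in 12.9% of windows and once in that of each. CCAAT and the antioxidant core TGACNNNGC, the second in 10.1% of windows, are each once in both. Both windows hold the whole shared stretch, and all these matches lie in it, so they are the same sites seen from each side. Among 8 motifs searched in the windows of the 5 called genes and Abcg5, no match overlapped one to another motif. AGGTCA and GGGCGG, found in Abcd2, are not in these 2 windows.

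The other 3 sterol and lipid exporters did not pass either. Abca1, which loads cholesterol and phospholipid onto apolipoprotein A-I, averaged 125 ± 31.2 CPM in the restricted group and 149 ± 16.7 CPM in the normal group (SD, n = 5 each; edgeR adjusted p 0.400). Abca7, a phospholipid exporter of low level in liver, had 3.42 ± 1.11 CPM in the restricted group and 4.11 ± 0.617 CPM in the normal group (edgeR adjusted p 0.546). Of 15 tested genes around the sterol-sensing receptor LXR and lipoprotein export, 1 rose and 1 fell, with a median log2 fold change of 0.05. Pltp, which moves phospholipid between lipoproteins, averaged 44.2 ± 9.07 CPM in the restricted group and 28.2 ± 5.50 CPM in the normal group (edgeR adjusted p 0.0408), and Srebf1, the transcription factor that drives lipid synthesis, fell, with 75.4 ± 26.7 CPM in the restricted group and 212 ± 80.1 CPM in the normal group (adjusted p 0.0229).

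Abcg1, which hands cholesterol to high-density lipoprotein and is known for its role in macrophages, set restricted 2 and 5 apart. It had 14.3, 22.4, 11.7, 14.4 and 37.1 CPM in restricted 1 to 5, against 14.8, 15.3, 14.7, 14.4 and 14.4 CPM in normal 1 to 5. The normal libraries were almost level, restricted 1, 3 and 4 were at or below them, and restricted 2 and 5 were above them all. Over all libraries the log2 fold change of 0.44 ± 0.28 did not pass (edgeR adjusted p 0.404), and without restricted 2 and 5 it was −0.13 (adjusted p 0.603, where 5 members and 2.95% of all genes were called). With Kdm5d as a covariate, where the difference rests on restricted 5, the log2 fold change was 1.38 (edgeR adjusted p 0.0313). Restricted 2 and 5 were also the libraries with the highest macrophage marker sums, and the part of these cells in the Abcg1 values was not tested.

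**Figure D4:**
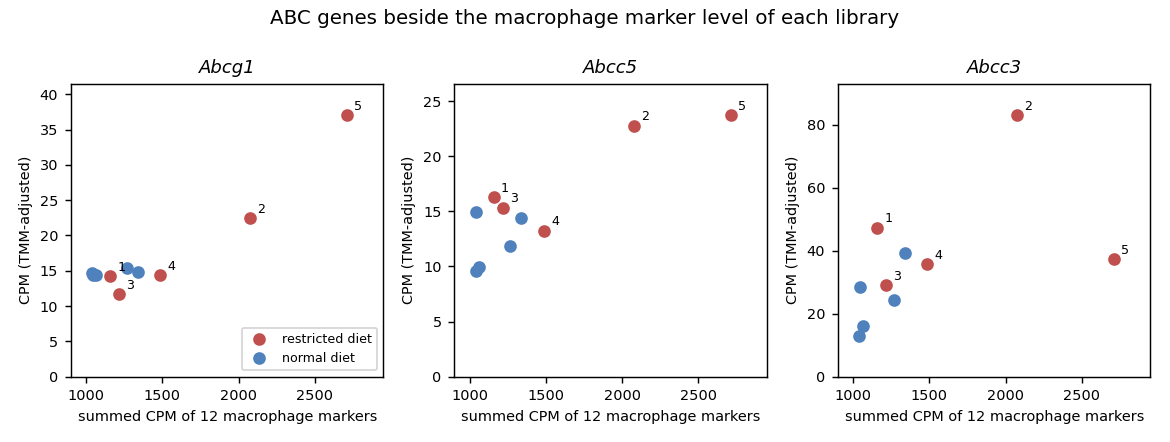
CPM of Abcg1, Abcc5 and Abcc3 in each library against the summed CPM of 12 macrophage markers in the same library; numbers name the restricted libraries. Restricted 2 and 5 lie to the right at 2077 and 2711 CPM of markers and hold the highest Abcg1 and Abcc5, whereas Abcc3 is high in restricted 2 and not in restricted 5.

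None of the 9 rows for drug and conjugate exporters passed the test, and their log2 fold changes ran from −1.01 to 0.95. Abcg2 (ENSRNOG00000007041), the breast cancer resistance protein that exports drugs and urate, had 17.8, 5.72, 9.67, 20.1 and 18.9 CPM in restricted 1 to 5, against 24.7, 33.4, 33.9, 26.3 and 27.4 CPM in normal 1 to 5. The groups did not overlap, with restricted 2 the lowest. The difference did not pass (log2 fold change −1.01 ± 0.30; 95% interval −1.68 to −0.34; edgeR adjusted p 0.0961). Against the normal mean, restricted 5 had a log2 difference of −0.63 and the mean of restricted 1 to 4 one of −1.13.

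Abcc3, Abcc5 and Abcc10 are efflux pumps of the multidrug resistance protein group. Abcc3 (ENSRNOG00000002948), which sends glucuronides and bile acids back to blood, had 47.4, 83.1, 29.1, 35.7 and 37.3 CPM in restricted 1 to 5, against 39.1, 24.2, 12.8, 28.5 and 16.2 CPM in normal 1 to 5. All 5 restricted libraries were above the normal mean but 3 of them lay below normal 1, and the log2 fold change of 0.95 ± 0.36 did not pass (edgeR adjusted p 0.187). Abcc5 (ENSRNOG00000029178), which exports cyclic nucleotides, had 16.3, 22.8, 15.3, 13.3 and 23.7 CPM in restricted 1 to 5, against 14.4, 11.8, 9.57, 14.9 and 9.98 CPM in normal 1 to 5. Its 2 highest libraries were restricted 2 and 5 (log2 fold change 0.59 ± 0.19, edgeR adjusted p 0.100), and without them the log2 fold change was 0.30 (adjusted p 0.362). The macrophage markers and the T and NK cell markers were highest in restricted 2 and 5 too, and their part was not tested.

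Abcc10 (ENSRNOG00000018863) had 9.58, 7.61, 8.22, 6.17 and 7.66 CPM in restricted 1 to 5, against 8.44, 18.6, 7.63, 15.9 and 19.7 CPM in normal 1 to 5. The normal libraries fell into 2 low and 3 high ones, and the log2 fold change of −0.84 ± 0.26 did not pass (edgeR adjusted p 0.101). Abcc6, lost in human pseudoxanthoma elasticum and known for ATP release from liver, had the highest FPKM of all members, 44.9 ± 7.63 in the restricted group and 52.7 ± 8.87 in the normal group (SD, n = 5 each; log2 fold change −0.25, edgeR adjusted p 0.366).

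Abcc1 and Abcc4, exporters of glutathione conjugates and cyclic nucleotides, had log2 fold changes of 0.09 (95% interval −0.32 to 0.50) and 0.03 (−0.32 to 0.38). Both rows named Abcb1b, the P-glycoprotein drug pump, overlapped between the diets. ENSRNOG00000008012 had 28.2 ± 7.02 CPM in the restricted group and 22.9 ± 6.60 CPM in the normal group, and ENSRNOG00000066042 had 7.70 ± 4.62 CPM in the restricted group and 8.17 ± 3.19 CPM in the normal group (SD, n = 5 each). The sources used here do not say how reads were split between such close copies. Of 8 regulators of drug handling, 0 rose and 1 fell, the dimer partner Arnt of the dioxin receptor, with 36.5 ± 2.20 CPM in the restricted group and 47.6 ± 2.76 CPM in the normal group (edgeR adjusted p 0.0172). The xenobiotic receptors Nr1i3 (CAR) and Nr1i2 (PXR) had log2 fold changes of 0.80 and 0.67 that did not pass (adjusted p 0.0694 and 0.0787).

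The transporters of lysosome and endoplasmic reticulum both fell, at low levels. Abcb9 (ENSRNOG00000001082), the lysosomal peptide transporter TAPL, had 29, 35, 6, 20 and 48 counts in restricted 1 to 5, against 61, 91, 108, 50 and 59 counts in normal 1 to 5. As CPM these were 1.29, 1.89, 0.415, 1.31 and 2.99 in the restricted libraries, against 3.99, 5.79, 7.23, 3.30 and 3.98 in the normal libraries. Restricted 5 came closest to the normal libraries without reaching them. The log2 fold change was −1.61 ± 0.39 (SE; edgeR adjusted p 0.0403), and dropping single libraries it passed only without restricted 3 (adjusted p 0.0392) or restricted 5 (0.0136), while the other 8 fits gave 0.0583 to 0.0978. In restricted 5 the difference from the normal mean was −0.70 on the log2 scale, against −1.99 for restricted 1 to 4. With Kdm5d as a covariate it did not pass (log2 fold change −0.60, edgeR adjusted p 0.650).

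Abcd4 (ENSRNOG00000011964), which releases cobalamin from lysosomes and is no peroxisomal carrier despite its subfamily, had 4.59, 3.67, 3.59, 5.64 and 4.17 CPM in restricted 1 to 5, against 6.87, 7.26, 7.43, 6.21 and 6.13 CPM in normal 1 to 5. The groups did not overlap and restricted 4 was nearest to the normal libraries. The log2 fold change was −0.64 ± 0.16 (SE; edgeR adjusted p 0.0408), and it was −0.70 in restricted 5 and −0.63 in restricted 1 to 4, from the CPM means. With Kdm5d as a covariate it did not pass (log2 fold change −0.69, edgeR adjusted p 0.264). Dropping single libraries, it passed only without restricted 4 (adjusted p 0.0265), and the other 9 fits gave 0.0572 to 0.0978. The peptide transporters Tap1 and Tap2 of the endoplasmic reticulum, ABC genes under other symbols, did not pass (adjusted p 0.365 and 0.285), and Tap1 was highest in restricted 2 and 5 with 91.7 and 70.2 CPM, against 15.8 to 32.1 CPM in the normal libraries.

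The 4 mitochondrial and heme-related ABCB genes had log2 fold changes from −0.31 to −0.02, and 0 of 4 passed. Abcb8 (ENSRNOG00000008557), an inner membrane protein tied to iron export, had 23.8, 21.4, 22.4, 19.6 and 19.3 CPM in restricted 1 to 5, against 28.5, 24.4, 27.2, 25.5 and 26.4 CPM in normal 1 to 5. The groups did not overlap in CPM but did in FPKM, and the log2 fold change of −0.31 ± 0.09 did not pass (edgeR adjusted p 0.0752). Abcb6, a porphyrin transporter, and Abcb10, needed for heme synthesis in red cell precursors, had log2 fold changes of −0.18 and −0.02.

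Of 19 tested genes of heme and iron-sulfur assembly, 0 rose and 1 fell, with a median log2 fold change of −0.17. The one that fell was Ciao1, of cytosolic iron-sulfur assembly, with 17.2 ± 1.52 CPM in the restricted group and 23.2 ± 2.79 CPM in the normal group (edgeR adjusted p 0.0424). Erythroid markers summed to 22.8 to 65.5 CPM in the restricted libraries and 18.4 to 31.4 CPM in the normal libraries over 4 genes, and 1 of the 4, Ahsp, passed as higher. Their part in the ABCB values was not tested.

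None of the 4 soluble members passed, with log2 fold changes from −0.26 to 0.02. Abce1 (ENSRNOG00000018345), which splits ribosomes after translation ends, had 69.0, 57.2, 58.2, 67.9 and 53.4 CPM in restricted 1 to 5, against 78.9, 73.4, 69.6, 67.6 and 75.8 CPM in normal 1 to 5. Only restricted 1 and restricted 4 reached into the normal range, and the log2 fold change of −0.26 ± 0.09 did not pass (edgeR adjusted p 0.143). Abcf1, a factor of translation initiation, and Abcf2 had log2 fold changes of −0.10 (95% interval −0.29 to 0.08) and −0.17 (−0.34 to −0.0024), and Abcf3 had 0.02 (−0.16 to 0.19), which was −0.0062 with upper-quartile scaling. Of 9 tested partners in ribosome recycling and translation control, 1 rose and 0 fell. It was Pelo, which rescues stalled ribosomes together with Abce1, and it averaged 26.1 ± 1.54 CPM in the restricted group and 15.8 ± 2.28 CPM in the normal group (SD, n = 5 each; edgeR adjusted p 0.00574).

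Among 7 tested lipid transporters of the remaining A subfamily, 0 passed. Abca8, Abca8a, Abca9 and Abca6 lie next to each other in the RefSeq gene order of GRCr8 (chromosome 10), followed by Abca5. Abca8 (ENSRNOG00000004040) had 43.5, 37.6, 32.3, 56.6 and 44.9 CPM in restricted 1 to 5, against 40.8, 29.0, 21.3, 18.7 and 22.0 CPM in normal 1 to 5. Normal 1 lay among the restricted libraries and the other 4 normal libraries below them, with a log2 fold change of 0.70 ± 0.22 (edgeR adjusted p 0.100; 0.0206 without normal 1 and 0.0759 to 0.215 without each of the other 9). Its neighbour Abca8a had 178, 97.1, 200, 246 and 90.4 CPM in restricted 1 to 5, against 113, 132, 160, 112 and 151 CPM in normal 1 to 5. Restricted 1, 3 and 4 were above all normal libraries and restricted 2 and 5 below them all. The log2 fold change of 0.28 ± 0.27 (edgeR adjusted p 0.599) thus averaged libraries on both sides. The summed level of 8 hepatocyte markers was 144490 CPM in restricted 2 and 140970 CPM in restricted 5, against 160120 to 191420 CPM in the normal libraries. Most of that sum is Alb and Tf. Alb was within the normal range in restricted 2 and 5 (101660 and 100240 CPM, against 99848 to 130540 CPM). Tf was below its normal range there (34029 and 30473 CPM, against 41303 to 48958 CPM). The part of hepatocyte message in the Abca8a values was not tested.

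Abca6, second of all members in FPKM, had 33.7 ± 3.27 FPKM in the restricted group and 29.2 ± 3.20 FPKM in the normal group (SD, n = 5 each; log2 fold change 0.19, edgeR adjusted p 0.417). Abca9 had a log2 fold change of 0.15. Abca2 and Abca3, of lysosomal lipid in brain and of lung surfactant bodies, had −0.25 and −0.15. Abca13, the member that failed the filter, had 2, 33, 0, 2 and 22 counts in restricted 1 to 5, against 5, 3, 3, 1 and 6 in normal 1 to 5, with its 2 highest values again in restricted 2 and 5. The 0 in restricted 3 allows up to 0.207 CPM.

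The 4 genes like Abcg3, a rodent relative of Abcg2, had log2 fold changes from −0.22 to 0.31, and 0 passed. Abcg3l4 had the highest level of them, with 6.31 ± 1.78 FPKM in the restricted group and 5.10 ± 2.22 FPKM in the normal group (SD, n = 5 each), and normal 5 alone was at 1.51 FPKM. These genes resemble each other in sequence, so reads may have been shared between them. The sulfonylurea receptors Abcc9 and Abcc8, subunits of ATP-sensitive potassium channels in vessel wall and pancreatic islet, had log2 fold changes of −0.24 (95% interval −0.54 to 0.07) and −0.27 (−1.06 to 0.52) and did not pass.

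Per length, the family spanned a wide range of levels. Over the 10 libraries 7 members had a mean FPKM of at least 10, 24 lay from 1 to 10 and 10 were under 1. Abcc6, Abca6, Abcd3, Abca8a and Abcg5 led, in this order. The order near the top differed between the groups: Abcd3 had 19.1 ± 2.70 FPKM and Abcg5 9.87 ± 1.13 FPKM in the restricted group, against 12.8 ± 0.379 FPKM and 15.7 ± 5.08 FPKM in the normal group (SD, n = 5 each). Abcd3 was above Abcg5 in all 5 restricted libraries and in normal 3, and below it in the other 4 normal libraries.

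**Figure D5:**
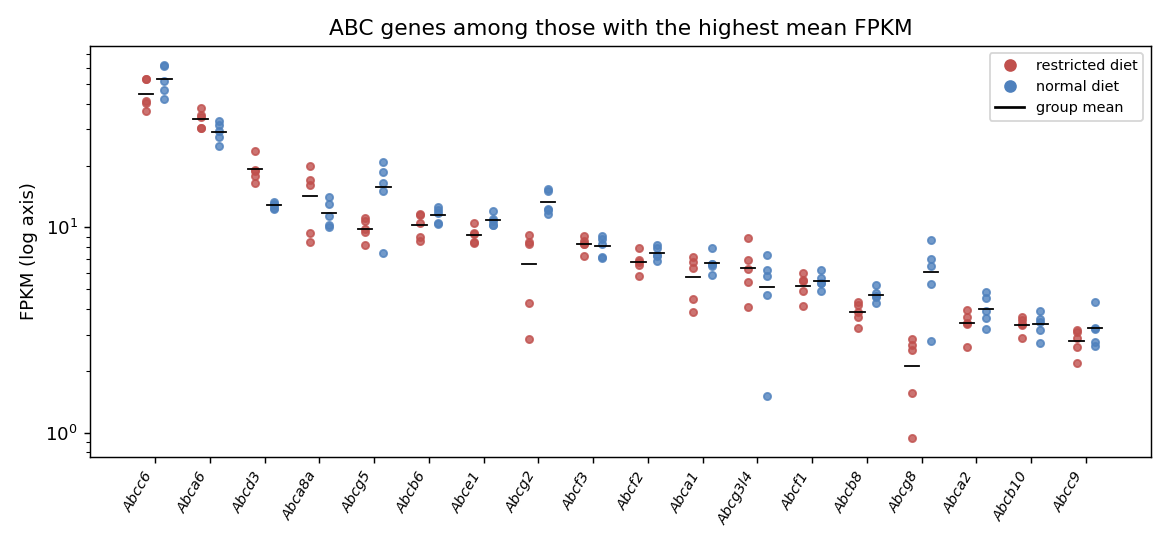
FPKM on a log axis of 18 of the 20 ABC genes with the highest mean FPKM, one point per library, restricted left and normal right of each pair, with group means as bars. Abcd3 is higher and Abcg2 lower in all restricted libraries, Abcg8 overlaps in FPKM through normal 3, and Abcc6 leads in both groups.

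The 3 bile exporters left out of the members gave 1 call. Abcb4, the phospholipid flippase of the canaliculus, averaged 262 ± 55.7 CPM in the restricted group and 133 ± 39.3 CPM in the normal group (SD, n = 5 each; edgeR adjusted p 0.0231), while the bile salt pump Abcb11 and the conjugate pump Abcc2 did not pass (adjusted p 0.587 and 0.996). Whether these 3 differ from the members was not tested. In the authors' deposited table, 4 members met their rule of more than a 1 log2 unit change at p below 0.05 (Abcd2, Abcb9, Abcg8 and Abcg2), beside 3.82% of all genes. By the adjusted p in the authors' deposited table, 12 members passed beside 8.48% of all genes. DESeq2 on the counts also called 12 beside 8.48%, and all 12 were the same genes. They were the 5 called here together with Abcg2, Abcg5, Abcb8, Abcc3, Abcc5, Abcc10 and Abca8. The deposited and DESeq2 values were nearly the same, as for Abcg2 (adjusted p 0.00909 deposited and 0.00910 in DESeq2). The shared calls are therefore not separate evidence.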

How the data were processed

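Extraction used TRIpure and library preparation an NEBNext Ultra kit, per the labels' protocols. Reads were handled with bcl2fastq, fastp and HTSeq on build rn7, per the submitters' processing notes, and aligned with HISAT2 after a Q30 filter, per the series' design text. The sources used here name no versions, annotation or strand setting. Per the file headers, the table holds the authors' raw counts and FPKM (scaled by length and depth) for each library. It also holds the authors' deposited fold change (a ratio of restricted over normal diet), its log2 value, a p-value and an adjusted p-value.

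From the counts, restricted minus normal diet was fitted with edgeR 4.0.16 in R 4.3.3 (filterByExpr with minimum count 10, TMM factors, robust quasi-likelihood test, two-sided, Benjamini-Hochberg over 12367 of 12555 genes). CPM are counts over TMM-adjusted library sizes. The edgeR, voom and DESeq2 fits to all libraries, without covariate or block, were also run on simulated counts. That simulation held no sex or cell-type differences, and the other fits were not run on it. Libraries of a group differed by at least 21.2 times counting error (chi-square per degree of freedom). The labels do not say that each is a separate animal, so p-values measure the spread between libraries, which may be technical. Floors of 3 counts cover counting error only.

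The members, role groups and gene lists were chosen with earlier results of these data known. Named are members past the test and, per role, those with the highest FPKM or smallest p; further members were chosen after their values were seen. The values of 2 members are not reported here; they stay in the counts. Lists are described without a test. Same-numbered libraries were not paired.

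Promoters came from RefSeq (GRCr8) by symbol, and 32 of 40 symbols matched. Windows of 250 bases before the start were searched on both strands for the motifs named in the text, for the E-box CACGTG (in 5.59% of windows), for the STAT palindrome TTCNNNGAA (7.67%) and for the antioxidant core TGACNNNGC (10.1%). A match is a description only. Alternatives were RLE and upper-quartile scaling, no filter or 1 CPM in 5 libraries, DESeq2 1.42.0, voom in limma 3.58.1, a block for the replicate number, log2 CPM of Kdm5d (plus 0.5) as a covariate, restricted 5 alone against the normal libraries, each library left out, and, added after seeing the data, leaving out restricted 2 and 5.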

Additional observations from a re-analysis of the deposited data

Results flagged for a closer look

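Of 82 sets of 5 libraries (41 members in each diet), 3 held a library far from the other 4, where chance flags about 1 set in 20. Abcd3 had 349 CPM in restricted 4, against 228 to 251 CPM in the other restricted libraries. Abcc4 had 15.3 CPM in restricted 2, against 9.05 to 10.4 CPM in the others. The Abcb1b row ENSRNOG00000066042 had 15.6 CPM in restricted 1, against 3.49 to 6.64 CPM in the others.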

How the results depend on the processing

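The 506 genes and 5 members past the test became 501 to 516 genes and 5 members under RLE or upper-quartile scaling, no filter or 1 CPM in 5 libraries. Limma-voom called 450 genes and 4 members, and of the 5 it left out Abcg8. DESeq2 called 1049 genes and 12 members (5 higher, 7 lower). With the replicate block, 265 genes and 2 members (1 higher, Abcd2, and 1 lower, Abcg8) passed. Same-numbered libraries did not deviate together (correlations −0.185 to 0.121, 2 of 5 best with their own number). With the Kdm5d covariate, 118 genes and 1 member (1 higher, 0 lower) passed, and with restricted 5 alone against the normal libraries 802 genes and 2 members (0 lower), with the spread taken from the normal libraries only. Leaving out single libraries gave 215 to 472 genes, 1 to 4 members, 1 to 3 higher and 0 to 3 lower; the gene count was 268, 227 and 215 without normal 3, 4 or 5 and 232 and 320 without restricted 2 or 4. Leaving out restricted 2 and 5 gave 365 genes and 5 members.

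The sign of some members that did not pass depended on the setting (log2 values). With single libraries left out, Abcg3l2 ranged from −0.048 to 0.18, Abcb1b ENSRNOG00000066042 from −0.52 to 0.15, Abcc4 from −0.13 to 0.12, Abcc1 from −0.032 to 0.17, Abcb10 from −0.081 to 0.041, Abca16 from −0.11 to 0.27, Abcf3 from −0.024 to 0.051 and Abcc8 from −0.47 to 0.092. Without restricted 2 and 5, Abcg3l2 was −0.00053, Abcb1b ENSRNOG00000066042 0.23, Abcc4 −0.12, Abcc1 −0.13, Abcb10 0.045 and Abcg1 −0.13. With the Kdm5d covariate and with restricted 5 alone, the values were −0.18 and −0.16 for Abcc4, −0.60 and −0.56 for Abca8a, −1.62 and −1.55 for Abca16, −0.0030 and −0.0031 for Abcf3, 0.029 and 0.0093 for Abca1, and 0.26 and 0.24 for Abca7. Abca16 was −0.065 under limma-voom and −0.034 with the block, and Abcf3 was −0.0062 with upper-quartile scaling. The cause was not tested. Over all members and alternatives, 698 values kept their direction and side of the threshold, 15 passed in addition, 45 no longer passed and 42 changed sign. The 45 all belong to the called members, since only these could lose a call. Depth limits Abcb9 most among the called genes, with 6 to 108 counts per library.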
